A study of Mus musculus with 446 samples.

Results

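The 32 genes described here encode parts of the cell cycle machinery: G1 and G1/S cyclins with E2F1, factors that license and unwind replication origins, enzymes of DNA synthesis and nucleotide supply, cyclins and kinases of G2 and mitosis, and spindle and proliferation markers. They were picked by gene symbol among the 47643 genes of the liver and muscle tables, a rule that uses no measured value, although the list was drawn up with earlier results of these data known. RNA was taken from abdominal adipose tissue, liver and skeletal muscle of male Diversity Outbred mice, a population bred so that every mouse has a unique blend of several founder strains. Mice that arrived at 6 weeks of age ate a high-fat diet (60 kcal% fat) or a control diet (10 kcal% fat) for 14 weeks, and no other treatment separated the groups. High-fat mice gave 75 libraries per tissue, and control mice gave 73 from adipose tissue and 74 each from liver and muscle. All 32 genes were listed in liver and muscle. The adipose table used here holds 2728 genes, among them 11 of the 32: Ccne1, Cdc6, Cdt1, Mcm2, Mcm5, Rrm2, Cdk1, Foxm1, Cdc20, Birc5 and Kif11. The other 21 were not analysed in adipose tissue.

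A cell that leaves rest raises D cyclins and then E cyclins, which let E2F factors switch on the genes for DNA replication. ORC, CDC6 and CDT1 load the MCM helicase on replication origins, and PCNA, ribonucleotide reductase and thymidylate synthase support the synthesis that follows. CDK1 with A and B cyclins then drives mitosis, in which FOXM1 acts as a transcription factor, Aurora and Polo kinases order the spindle, and CDC20 opens the way to anaphase. Adult hepatocytes, muscle fibres and fat cells rarely divide, and the dividing cells of these organs are mostly stromal, endothelial and immune cells and progenitors.

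The promoters of these genes are textbook examples of cell cycle control, and 4 of them are shown, a mitotic and a replication pair that recur below. Cdk1 had the largest diet difference in adipose tissue, Cdc20 carries the motifs typical of a mitotic gene but had one of the smaller differences, Mcm5 carries E2F-type motifs, and Rrm2 moved in opposite directions in adipose tissue and liver. The bases are the 250 upstream of the RefSeq start, from GRCm38.p6, in the orientation of the gene. Capitals mark matches on either strand to the cell cycle homology region (TTTGAA), which the DREAM and B-MYB complexes bind, to the CCAAT box, and to E2F-type motifs (TTTGGCGC, TTTCGCGC or TTTCCCGC). Cdk1 lies at chr10:69352913-69353162 on the minus strand, Cdc20 at chr4:118437344-118437593 on the minus strand, Mcm5 at chr8:75109259-75109508 on the plus strand and Rrm2 at chr12:24708004-24708253 on the plus strand.
Cdk1: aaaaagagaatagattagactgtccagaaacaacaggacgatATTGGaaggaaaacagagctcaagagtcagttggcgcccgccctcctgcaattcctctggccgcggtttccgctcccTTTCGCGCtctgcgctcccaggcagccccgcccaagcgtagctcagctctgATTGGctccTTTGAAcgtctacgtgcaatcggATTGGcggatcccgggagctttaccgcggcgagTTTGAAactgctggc
Cdc20: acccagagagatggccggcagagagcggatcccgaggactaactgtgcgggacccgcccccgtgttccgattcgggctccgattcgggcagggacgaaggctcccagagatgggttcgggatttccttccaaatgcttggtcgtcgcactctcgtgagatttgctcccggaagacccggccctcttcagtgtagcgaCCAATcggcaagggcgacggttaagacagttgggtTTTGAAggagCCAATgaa
Mcm5: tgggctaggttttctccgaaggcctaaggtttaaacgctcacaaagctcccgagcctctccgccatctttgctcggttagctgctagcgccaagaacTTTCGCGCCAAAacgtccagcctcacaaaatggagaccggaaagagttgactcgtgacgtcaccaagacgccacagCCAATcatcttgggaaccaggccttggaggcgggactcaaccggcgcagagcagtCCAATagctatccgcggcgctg
Rrm2: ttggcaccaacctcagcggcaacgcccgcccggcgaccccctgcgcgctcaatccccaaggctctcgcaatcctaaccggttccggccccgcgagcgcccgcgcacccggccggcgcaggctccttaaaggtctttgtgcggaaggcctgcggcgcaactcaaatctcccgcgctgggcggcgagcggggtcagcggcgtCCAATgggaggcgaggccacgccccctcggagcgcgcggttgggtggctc
The capitals of Mcm5 hold 2 E2F-type matches on opposite strands that overlap. A stretch just after the RefSeq start was found in a GENCODE M21 transcript of Cdk1, Cdc20 and Rrm2 but not of Mcm5. The start used for Mcm5 is thus less certain. RefSeq promoters of 300 bases (250 before and 50 after the start) were matched for 26 of the 32 genes. TTTGAA occurred on either strand in 9 of 13 genes of G2 and mitosis and in 1 of 13 genes of G1 and replication (Mcm2), against 17.9% of all 32851 promoters. CCAAT occurred in 11 of 13 and 8 of 13 of the same groups, against 37.4% of all promoters. An E2F-type motif occurred in 1 of 13 genes of G2 and mitosis (Cdk1) and in 6 of 13 genes of G1 and replication, against 1.84%. Birc5, the gene with the second largest difference in adipose tissue, held none of these motifs, and Cdt1, the one after it, held 1 E2F-type match. These counts describe letters in a window and do not show that a factor binds there.

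Values are TPM, abundances per transcript length, scaled within each tissue so that typical genes agree between libraries ("scaled TPM"). Sequencing depth cannot be read from TPM and is unknown here. The scale factors of muscle libraries ran from 0.0454 to 1.85, those of livers from 0.00993 to 1.64 and those of adipose libraries from 0.0388 to 1.28. Factors under 1/3 of the tissue's median were found in 7 high-fat and 11 control adipose libraries, 12 and 14 liver libraries, and 9 and 2 muscle libraries. The liver library of mouse 80 carried muscle fibre transcripts (7 markers summed to 77760 scaled TPM, with hepatocyte markers at 225.8) and its muscle library the reverse (434.4 and 72430), so neither was used, which leaves 74 high-fat mice in liver and muscle. In the other liver libraries 7 hepatocyte markers summed to at least 24390, in the other muscle libraries 7 muscle fibre markers to at least 33570, and in adipose tissue 4 adipocyte markers to at least 1875. Some libraries still carried transcripts of another tissue. Muscle fibre markers reached 4945 in these livers (median 1.33), and hepatocyte markers reached 5763 in these muscles (median 37.0). The 1 muscle fibre marker in the adipose table reached 2680 (median 0.329). The part of such transcripts in the values below was not tested. Liver and muscle of the same number did not match best in 5 more mice, over the 150 genes that correlated best between same-numbered libraries. Of these, the livers of 3 high-fat mice correlated best with muscles of control mice, at r of 0.52, 0.466 and 0.508. Leaving these mice out of the diet fits and of the tests of differences between tissues ended no call on the 32 genes. The relations between tissues of the same mouse, given below, were not repeated without them.

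Outside adipose tissue, replication genes were mostly above 1 scaled TPM and mitotic genes mostly below it. Of 12 replication genes, 7 in liver and 8 in muscle had medians of at least 1 in both diets, and Cdc6, Cdt1 and Mcm5 were under 1 in both tissues. Of 16 genes of G2 and mitosis, 0 in liver and 1 in muscle did. Mcm2 was the only 1 of the 32 genes tested in all tissues, since 5 of the 12 replication genes are in the adipose table and most of those were too low elsewhere. Because each tissue was scaled on its own, levels are set side by side here without a test. In adipose tissue the medians of the 11 genes ran from 1.57 to 9.32 scaled TPM in high-fat mice and from 0.973 to 5.68 in control mice. In liver 22 of 32 genes had medians under 1 in both diets, and in muscle 21 of 32. Pcna (the DNA polymerase clamp) and Tyms (thymidylate synthase) led in liver, with medians of 10.8 and 11.8 in high-fat mice and of 10.5 and 10.8 in control mice. Pcna also led in muscle (13.2 in high-fat and 12.8 in control mice), followed by Rrm1 (the large subunit of ribonucleotide reductase) at 10.7 and 11.3. Aurka (Aurora kinase A) was the only mitotic gene with a median above 1 scaled TPM in muscle. The median was 4.61 in high-fat and 4.56 in control mice, while its relative Aurkb was at 0.237 and 0.251. Bub1, a spindle checkpoint kinase, was listed at 0 in 45 of 74 high-fat and 41 of 74 control livers, and its median in liver was 0 in both diets.

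**Figure D1:**
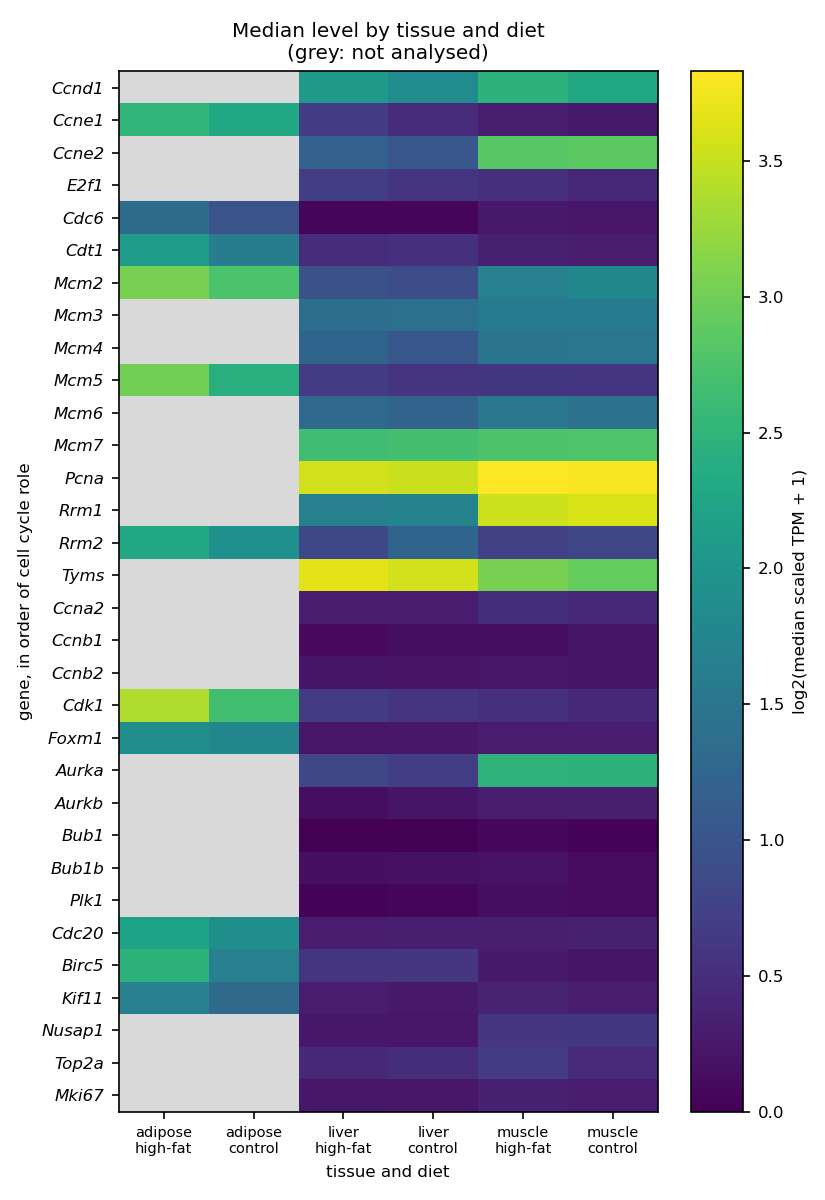
Median level of each of the 32 genes (rows, in order of cell cycle role) by tissue and diet (columns), as log2(median scaled TPM + 1), with grey for genes not analysed in adipose tissue. Of the 12 replication genes, 7 reach a median of 1 scaled TPM in both diets in liver and 8 in muscle, and in liver 22 of the 32 genes lie under 1 scaled TPM in both diets.

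In adipose tissue all 11 genes rose in high-fat mice. The test was limma on log2(scaled TPM + 1), two-sided, with Benjamini-Hochberg adjustment over 2226 genes, and it called 45.6% of those genes, 22.9% higher and 22.7% lower in high-fat mice. In TPM as deposited, without scaling, the split was 300 higher and 17 lower genes, with the median of all genes shifted to 0.21. The median log2 fold change of the 11 genes was 0.43, against −0.02 over all genes tested. Each of the 11 was above the control median in 53 to 66 of 75 high-fat mice, and the ranges of the diets overlapped for every gene. Fold changes on this scale understate those of genes with low levels. In bulk tissue, more dividing cells and more of these transcripts per cell cannot be told apart.

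Cdk1, the kinase that drives cells into mitosis, showed the largest difference. Its level in high-fat mice ran from 3.91 through a median of 9.32 to 31.2 scaled TPM, and in control mice from 1.67 through 5.36 to 17.9. In 65 of 75 high-fat mice it was above the control median, and the lowest high-fat value lay above the lowest control value (log2 fold change 0.83 ± 0.11 SE, adjusted p = 5.48e-11). Birc5, which encodes survivin of the chromosomal passenger complex, ran from 0.948 through 4.57 to 14.6 in high-fat mice and from 0.651 through 2.18 to 10.7 in control mice. Its log2 fold change was 0.70 ± 0.11 (adjusted p = 9.75e-08), and 61 of 75 high-fat mice were above the control median. Kif11, a kinesin that keeps spindle poles apart, had a median of 2.19 in high-fat mice (1.03 to 6.73) and 1.499 in control mice (0.257 to 5.10), a difference of 0.43 ± 0.08 (adjusted p = 6.50e-07). Cdc20, the activator of the anaphase-promoting complex, had a median of 3.66 in high-fat mice (0.574 to 9.31) and 2.74 in control mice (0.865 to 9.58). It rose by 0.29 ± 0.09 (adjusted p = 0.00559), and here the highest value was in a control mouse. Foxm1, the transcription factor of G2 genes, had the smallest rise, at a median of 2.75 in high-fat mice (0.767 to 10.0) and 2.39 in control mice (0.455 to 6.28). Its rise of 0.21 ± 0.08 (adjusted p = 0.0273) no longer passed in TPM as deposited, where it was 0.31 ± 0.12 (adjusted p = 0.0547), or without the libraries of low scale factor, where it was 0.16 ± 0.08 (adjusted p = 0.112).

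The origin licensing genes rose as well. Cdt1, which brings the MCM helicase to origins, had a median of 3.33 scaled TPM in high-fat mice (1.10 to 11.8) and 2.09 in control mice (0 to 6.27), a log2 fold change of 0.58 ± 0.09 (adjusted p = 1.74e-08). Its partner Cdc6 had a median of 1.57 in high-fat mice (0.549 to 4.49) and 0.973 in control mice (0 to 2.40), and rose by 0.35 ± 0.06 (adjusted p = 7.95e-07). For both genes 1 control library was at 0 and no high-fat library was. Each of these libraries had a low scale factor, 0.0786 for Cdt1 and 0.135 for Cdc6. Mcm5, a subunit of the helicase, was at 7.05 in high-fat mice (3.01 to 20.5) and 4.31 in control mice (0.345 to 11.6), and 66 of 75 high-fat mice exceeded the control median (0.56 ± 0.08, adjusted p = 8.95e-09). Mcm2, another subunit, was at 7.29 in high-fat mice (2.57 to 40.3) and 5.68 in control mice (2.58 to 14.2), a rise of 0.34 ± 0.08 (adjusted p = 2.99e-04). The value of 40.3 belongs to a high-fat mouse whose library had the lowest scale factor (0.0388), and the next highest high-fat value was 16.9. Rrm2, the small subunit of ribonucleotide reductase that limits nucleotide supply in S phase, was at 3.93 in high-fat mice (1.25 to 11.4) and 2.78 in control mice (0.574 to 7.62), a rise of 0.48 ± 0.10 (adjusted p = 1.28e-05). Ccne1, the G1/S partner of CDK2, was at 4.69 in high-fat mice (2.04 to 10.4) and 3.87 in control mice (1.33 to 9.02), a rise of 0.22 ± 0.07 (adjusted p = 0.00817).

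**Figure D2:**
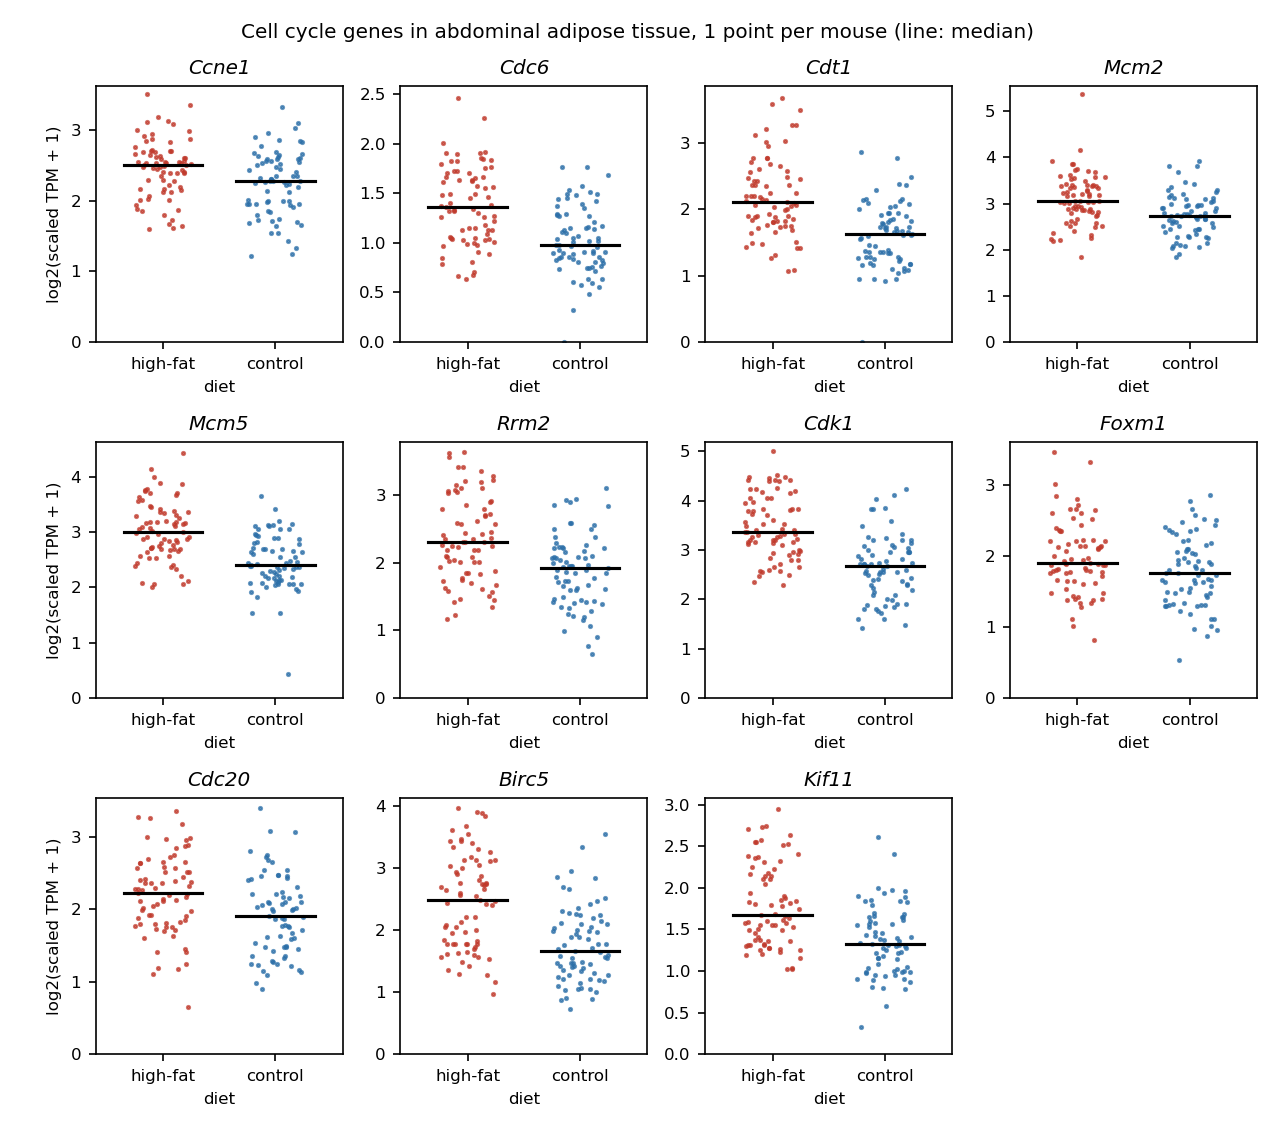
Level of the 11 genes in abdominal adipose tissue as log2(scaled TPM + 1), with 1 point per mouse and a line at the median of each diet (75 high-fat mice, 73 control mice). Medians of high-fat mice are above those of control mice for all 11 genes, and the points of the diets overlap in each panel.

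Markers of macrophages moved with these genes. The 5 macrophage markers present in the adipose table summed to a median of 281.5 scaled TPM in high-fat mice (80.03 to 1070) and 117.8 in control mice (60.9 to 633.6). Of the 4 that were tested, Cd68 (1.56 ± 0.17, adjusted p = 3.63e-13), Adgre1 (1.18 ± 0.15, adjusted p = 2.44e-11) and Fcgr1 rose, Cd163 did not pass (−0.13 ± 0.08, adjusted p = 0.171), and Clec4f, a marker of liver macrophages, had a median of 0. The 4 lymphocyte markers present summed to 16.6 in high-fat mice (3.55 to 68.1) and 8.86 in control mice (1.47 to 35.9), with Il7r as the only member of 4 that rose. The 4 adipocyte markers present fell together, at a summed median of 4180 in high-fat mice (1875 to 8591) and 6330 in control mice (1974 to 12060). The 2 fibroblast markers both rose (summed 1028 and 884.1), and of 4 endothelial markers none rose and 1 fell (summed 272.8 and 277).

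With the log2 sum of macrophage markers as a covariate, 0 of the 11 genes passed limma's test, and 2 did at an unadjusted p under 0.05. That fit called 36 genes of all 2226, against 1015 without the covariate. Cdk1 then differed by 0.34 ± 0.10 on the log2 scale (adjusted p = 0.0584). For Birc5 the difference was 0.02 ± 0.09 (adjusted p = 0.935). Ccne1 (−0.03), Cdc20 (−0.04) and Foxm1 (−0.14) were below 0, none past the threshold. With other sums as the covariate, chosen after the data were seen, the number of the 11 genes that passed was 5 for lymphocyte markers, 7 for adipocyte, 9 for fibroblast and 11 for endothelial markers. Those fits called 12.4%, 40.7%, 30.5% and 47.1% of all 2226 genes, in the same order. The macrophage sum itself differed by diet, and the part of these cells in the rise was not tested.

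Within a diet the genes also followed the macrophage sum from mouse to mouse. Across the 75 high-fat mice, r of log2 values lay between 0.479 (Ccne1) and 0.855 (Kif11), with Birc5 at 0.853 and Spearman's rho between 0.537 and 0.846. All 11 relations passed in two-sided permutation tests, adjusted over 22 relations. The median r of the 11 was 0.687, against −0.05 over the 2222 tested genes that are not markers themselves, of which 14.4% had an r at least as high as that of Ccne1. For 10 genes the adjusted p for r was 2e-05, which rests on 1e-05, the smallest p that 100000 permutations can give. Without the 2 mice farthest from the median, r stayed between 0.48 and 0.841. Across the 73 control mice r lay between 0.138 (Mcm2) and 0.552 (Birc5), with a median of 0.346 against −0.04 over the other genes. Of the 2222 tested genes that are not markers, 29.8% had an r at least as high as that of Mcm2 in control mice. The r of 14.1% was at least as high as the median of the 11. By r 9 of the 11 passed and by rho 4 did (Ccne1, Cdt1, Foxm1 and Birc5). Without the 2 farthest control mice r lay between −0.03 and 0.44. For 5 of the 9 r then fell by over 1.5 times, to 0.0876 for Kif11, 0.111 for Cdc6, 0.149 for Rrm2, 0.193 for Mcm5 and 0.202 for Cdk1. These 5 relations, none of which passed by rho, rest on those mice. Whether the relations differ between diets was not tested.

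**Figure D3:**
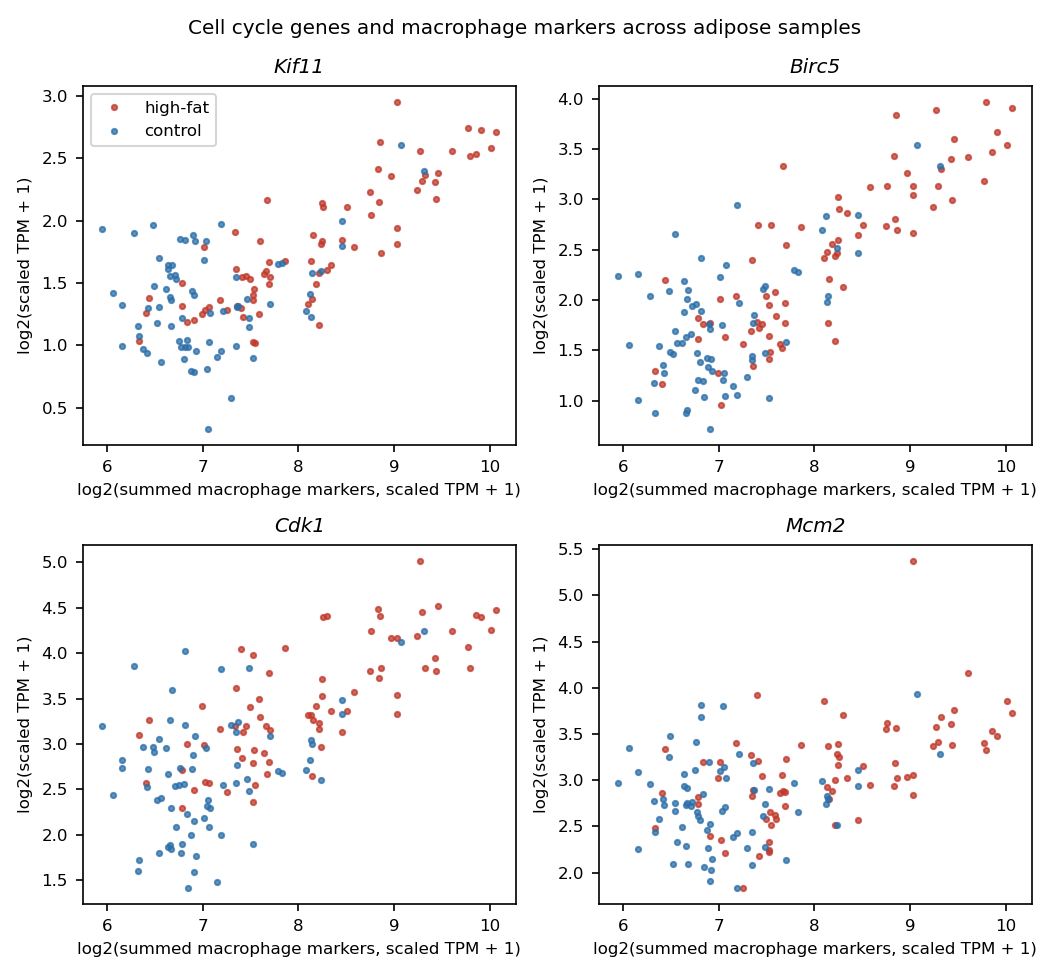
Level of Kif11, Birc5, Cdk1 and Mcm2 against the sum of the macrophage markers in adipose tissue, both as log2(scaled TPM + 1), with 1 point per mouse for the 75 high-fat and 73 control mice. Across high-fat mice r is 0.855 for Kif11, 0.853 for Birc5, 0.747 for Cdk1 and 0.56 for Mcm2, and few control mice reach the upper range of the macrophage sum.

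Other genes of the cycle in the adipose table were taken from 4 pathway lists. Among 6 further mitosis genes 5 rose and 1 did not pass. Spc25, a kinetochore subunit, was at a median of 6.83 in high-fat mice (0 to 17.6) and 2.59 in control mice (0 to 10.1), a difference of 0.82 ± 0.12 (adjusted p = 1.62e-08) close to that of Cdk1. Hmmr (0.41 ± 0.08), Kif20a (0.37 ± 0.08) and Ube2c (0.34 ± 0.10) rose too. Ube2c, the ubiquitin-conjugating enzyme of anaphase, shares exon bases with Tnnc2 on the opposite strand, and Kif20a with Cdc23. Among 11 further replication genes 5 rose and 3 fell. Gmnn, the inhibitor of CDT1 (0.43 ± 0.10), Uhrf1 (0.43 ± 0.09) and Dnmt1 (0.29 ± 0.05), which copy DNA methylation to the new strand, were among those that rose, and Pold2, a polymerase delta subunit (−0.23 ± 0.05), was among those that fell. Of 5 RB, E2F and DREAM regulators E2f7, a repressor of E2F targets, rose (0.38 ± 0.12) and the others did not pass. Of 3 CDK partners and inhibitors Cdk4 rose slightly (0.15 ± 0.05), Ccnd2 fell (−0.21 ± 0.07) and Cdkn1b did not pass. The median log2 fold changes of these lists were 0.35 for mitosis, 0.16 for replication, 0.06 for RB and E2F regulators and 0.00 for CDK partners, against −0.02 over all genes.

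In liver 1 of 11 tested genes changed. The fit called 9.94% of 12376 genes, 4.57% higher and 5.37% lower in high-fat mice. In TPM as deposited 11 genes were higher and 48 lower. The gene that changed was Rrm2, which fell. In high-fat mice it ran from 0 through a median of 0.771 to 4.39 scaled TPM, and in control mice from 0 through 1.34 to 6.95. Only 22 of 74 high-fat mice were above the control median (log2 fold change −0.33 ± 0.09, adjusted p = 0.00778), though the ranges overlapped. The difference did not pass in TPM as deposited (−0.30, adjusted p = 0.238). After scaling by the median of ratios, Rrm2 was no longer among the genes tested. Its partner subunit Rrm1 was at 2.18 in high-fat mice (0 to 3.92) and 2.28 in control mice (1.16 to 6.67) and did not pass (−0.05 ± 0.05, adjusted p = 0.565).

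The helicase subunits did not pass in liver. Mcm7 was at 5.28 in high-fat mice (0 to 16.9) and 5.48 in control mice (2.16 to 16.2), with −0.03 ± 0.07. Mcm4 was at 1.34 in high-fat mice (0 to 3.77) and 1.06 in control mice (0 to 2.62), with 0.14 ± 0.06 (adjusted p = 0.132). It passed without the libraries of low scale factor (0.19, adjusted p = 0.00168), with array weights (adjusted p = 0.00495) and without the 11 livers that carry a second number in their label (adjusted p = 0.0384). Mcm2, Mcm3 and Mcm6 had log2 fold changes between −0.05 and 0.07. Ccne2, an E cyclin, was at 1.31 in high-fat mice (0 to 5.15) and 1.06 in control mice (0 to 26), with 0.09 ± 0.10 (adjusted p = 0.697). The value of 26 came from control mouse 27, with a scale factor of 0.0130, and with libraries of low scale factor left out Ccne2 was higher in high-fat mice (0.24, adjusted p = 0.0193). Tyms (0.08 ± 0.07) passed with array weights (adjusted p = 0.0407). Ccnd1, a D cyclin (0.15 ± 0.09), and Pcna (0.04 ± 0.05) did not pass in these fits.

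The 21 genes not tested in liver all had medians under 1 scaled TPM in both diets. E2f1 was at 0.614 in high-fat mice (0 to 2.82) and 0.484 in control mice (0 to 3.60), and Cdk1 at 0.593 (0 to 2.83) and 0.509 (0 to 5.27). Mki67, the common proliferation marker, was at 0.188 (0 to 1.44) and 0.173 (0 to 1.19), and Top2a, topoisomerase of S phase and mitosis, at 0.339 (0 to 3.02) and 0.414 (0 to 7.53). Between 8 and 86 of the livers in use were at 0 for each of the 21. Without a filter on low values none of them passed limma's test, and 2 of the 21 did at an unadjusted p under 0.05. Control mouse 22 held the highest level among control livers for 5 genes (Ccnb1, Ccnb2, Cdc20, Kif11 and Nusap1), with Ccnb2 at 5.32 and a scale factor of 0.952. Control mouse 13 did so for 5 others (E2f1, Mcm2, Mcm3, Mki67 and Rrm2), with Rrm2 at 6.95 and a low scale factor of 0.0623. Another library, from a high-fat mouse, held the highest level among high-fat livers for 6 genes, with Cdk1 at 2.83 and Ccnd1 at 11.5. In liver the summed macrophage markers had a median of 169 in high-fat mice (81.1 to 380.1) and 200 in control mice (92.5 to 579.4), and their part in the liver values was not tested.

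From the pathway lists in liver 3 genes passed. Wee1, the kinase that holds CDK1 inactive, was at a median of 1.16 in high-fat and 0.574 in control mice (0.45 ± 0.11, adjusted p = 0.00229). Cks2, a CDK-binding subunit, was at 12.99 in high-fat and 16.9 in control mice (−0.31 ± 0.09, adjusted p = 0.00948). Mcm10, a helicase activation factor, was at 52.7 in high-fat and 37.0 in control mice (0.43 ± 0.11, adjusted p = 0.00292). These medians lay far above those of all 32 genes in liver, which reached 11.8 in high-fat and 10.8 in control mice. The reason for so high a level was not tested. None of 12 tested mitosis genes passed limma's test (2 at an unadjusted p under 0.05) and none of 15 RB, E2F and DREAM regulators did (3 at an unadjusted p under 0.05), and Mcm10 was the only 1 of 30 further replication genes that did.

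In muscle none of 11 tested genes passed, where the limma fit called 1.61% of 13517 genes (1.03% higher and 0.577% lower in high-fat mice). In TPM as deposited 5 genes were higher and 10 lower, with the median of all genes at −0.15. At an unadjusted p under 0.05, 1 of the 11 did. That gene was Ccnd1, which ran from 1.81 through a median of 4.59 to 19.6 scaled TPM in high-fat mice and from 1.08 through 3.88 to 13.7 in control mice. In 54 of 74 high-fat mice it was above the control median (log2 fold change 0.23 ± 0.08, adjusted p = 0.102). It passed with array weights (adjusted p = 0.0272). It also passed without 6 muscle libraries, 1 of a high-fat mouse and 5 of control mice, whose 13 lymphocyte markers summed to over 50 scaled TPM (0.30 ± 0.07, adjusted p = 0.00603), an alternative added after the data were seen. Ccne2 was higher in muscle than Ccnd1, at 6.14 in high-fat mice (3.01 to 20.7) and 6.25 in control mice (2.76 to 14.4), with 0.00 ± 0.08. The MCM subunits tested had log2 fold changes between −0.09 (Mcm3) and 0.08 (Mcm6). Rrm1 was at 10.7 in high-fat mice (7.03 to 17.5) and 11.3 in control mice (6.58 to 16.5), with −0.07 ± 0.04 (adjusted p = 0.436), and Aurka at 4.61 (0.804 to 17.6) and 4.56 (1.06 to 21.4), with 0.03 ± 0.12. Of 73 tested genes of the 4 pathway lists none passed limma's test in muscle, and 7 did at an unadjusted p under 0.05.

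A few muscle libraries held the high end of many of the 32 genes, those of replication as well as those of mitosis. High-fat mouse 92 was the highest high-fat muscle for 18 of the 32 genes, with Mki67 at 5.59, Top2a at 7.15 and Cdk1 at 4.66 scaled TPM, against medians of 0.282, 0.581 and 0.423 in high-fat mice. Control mouse 62 was the highest control muscle for 10 genes and control mouse 34 for 5, among them Mki67 at 2.30. The 13 lymphocyte markers summed to 473 in mouse 92, 373 in mouse 62 and 266 in mouse 34, against medians of 2.33 in high-fat and 2.21 in control muscle, where Cd3d and Nkg7 had medians of 0. In 2 other high-fat mice Mki67 was at 2.89 and 2.88, at lymphocyte sums of 5.17 and 3.76. The part of lymphocytes in these values was not tested.

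**Figure D4:**
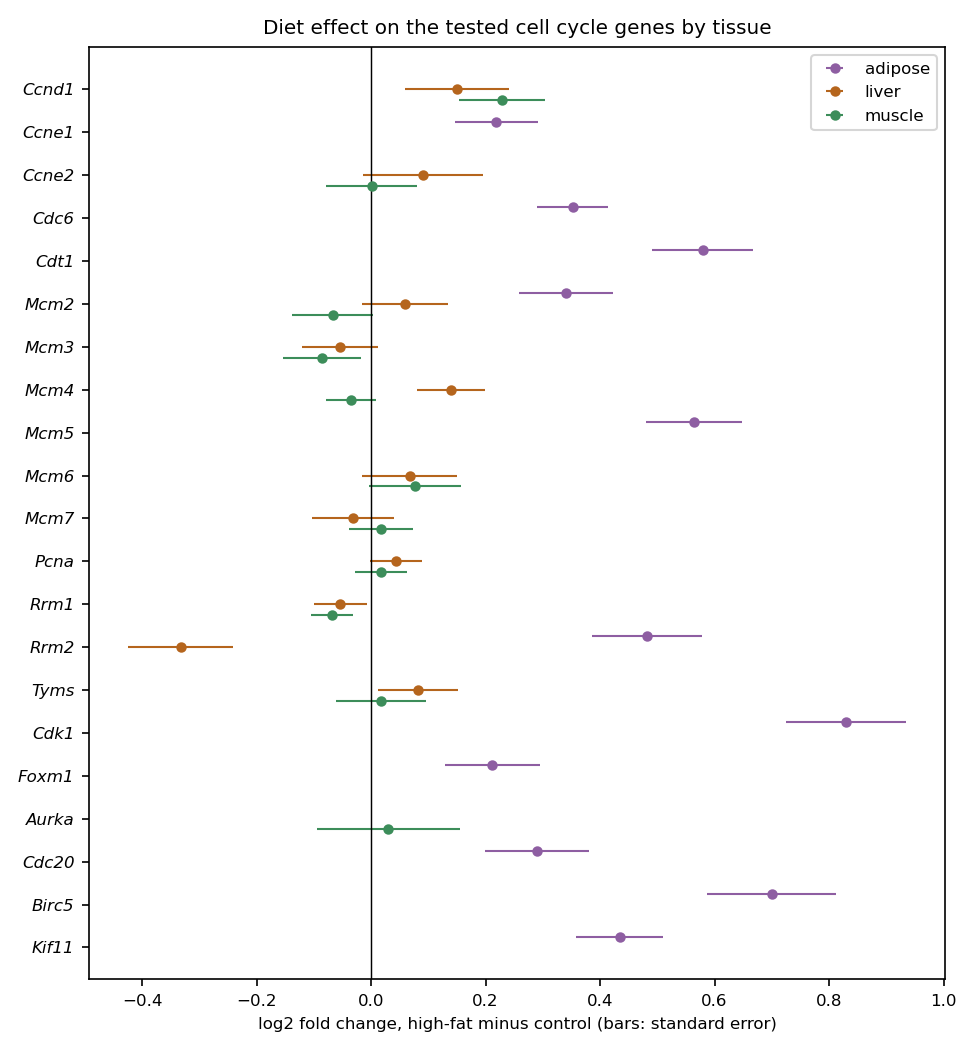
Log2 fold change of each tested gene, high-fat minus control, in adipose tissue, liver and muscle, with bars of 1 standard error. All 11 adipose values lie above 0, between 0.21 and 0.83, whereas liver values run from −0.33 (Rrm2) to 0.15 and muscle values from −0.09 to 0.23.

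Where a gene was tested in a pair of tissues, the difference of its diet effects was tested as an interaction, each tissue scaled on its own. Between adipose tissue and liver 26.5% of 1783 genes differed, 14.5% with the higher diet effect in adipose tissue, and both shared genes were among those 14.5%. Rrm2 rose in adipose tissue and fell in liver, a difference of 0.82 ± 0.13 (adjusted p = 1.10e-07). For Mcm2 the diet effect was 0.34 in adipose tissue and 0.06 in liver, a difference of 0.28 ± 0.11 (adjusted p = 0.0471). That difference did not pass in TPM as deposited (0.44, adjusted p = 0.0691), with a pseudocount of 0.1 (0.32, adjusted p = 0.27) or without the libraries of low scale factor (0.22, adjusted p = 0.0914). Between adipose tissue and muscle 24.1% of 1929 genes differed, 12% with the higher effect in adipose tissue. In TPM as deposited all but 2 of 110 such genes had the higher diet effect in adipose tissue against liver, and all but 2 of 444 against muscle. Mcm2, the 1 gene tested in both, differed by 0.41 ± 0.11 (adjusted p = 0.00246), from effects of 0.34 in adipose tissue and −0.07 in muscle. Between liver and muscle 3.26% of 10966 genes differed (212 of 358 with the lower diet effect in liver, 6 of 7 in TPM as deposited) and none of 10 shared genes did by limma's test, with 1 (Mcm4) at an unadjusted p under 0.05. For Mcm4 the difference of 0.17 ± 0.07 (adjusted p = 0.199) became 0.19 (adjusted p = 0.0438) without the libraries of low scale factor.

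In adipose tissue the genes varied together from mouse to mouse. With diet means removed, the 55 pairs of 11 adipose genes had a median r of 0.55 across all mice in use, against −0.004 for pairs of all genes tested, and 48 pairs were above 0.3. The closest pair was Birc5 and Kif11 at 0.79. Ccne1 stood apart from the others, with r between 0.127 (Mcm2) and 0.409 (Birc5). In liver the 55 pairs of the 11 tested genes had a median r of 0.11 (all genes 0.05), with the closest pair, Mcm7 and Tyms, at 0.36. In muscle the median was 0.06 (all genes 0.002). Within that set Mcm4 and Mcm6 reached 0.55, and Tyms and Rrm1 were at −0.43. Both Mcm4 and Mcm6 were highest in muscle of mouse 92 among high-fat mice and of mouse 62 among control mice. These correlations share libraries and scale factors, are across different genes in each tissue, and are given without a test.

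**Figure D5:**
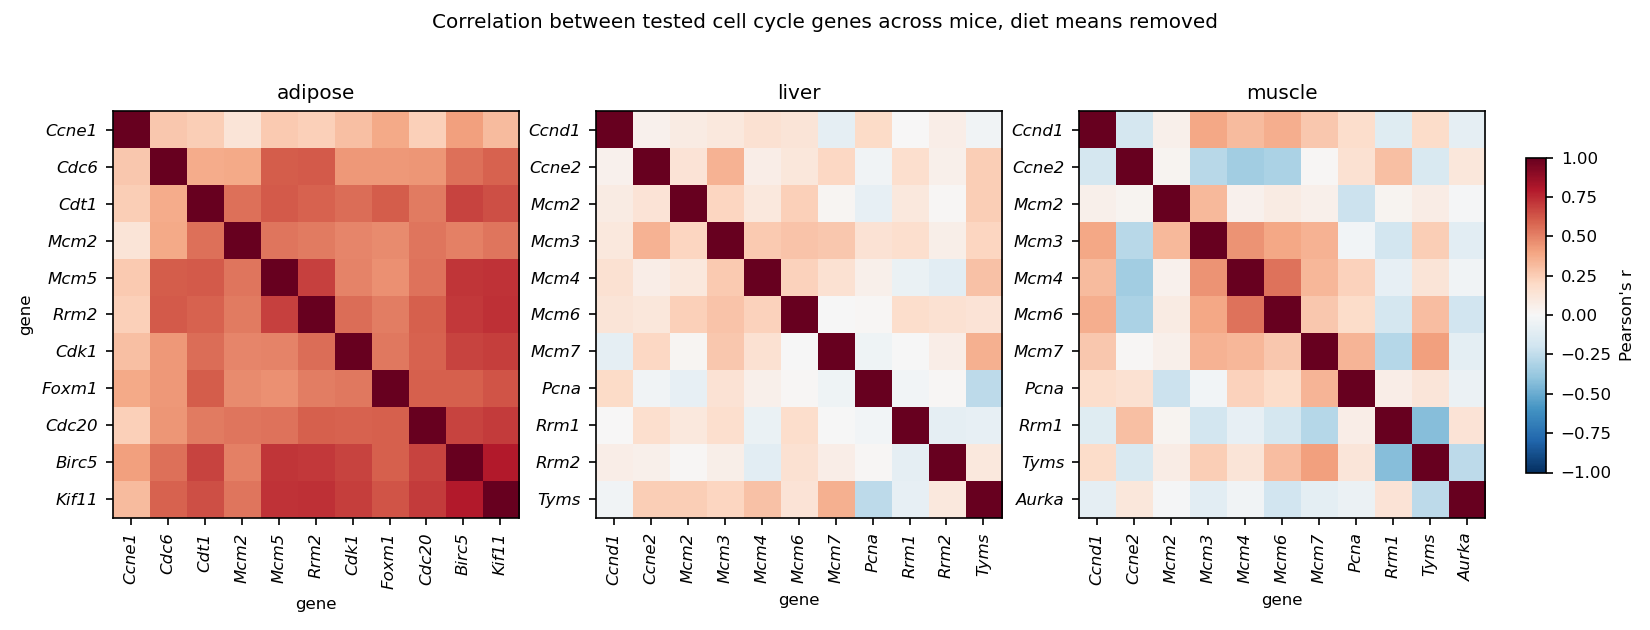
Pearson's r between the tested genes across all mice in use in adipose tissue, liver and muscle, from log2 values with diet means removed. The adipose block is red throughout, with a median of 0.55 over 55 pairs, while liver and muscle have medians of 0.11 and 0.06 and pairs below 0.

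The spread between mice of the same diet was compared as well. None of the 11 adipose genes passed limma's test, in which 2.34% of 2226 genes did, and 1 did at an unadjusted p under 0.05. That gene was Birc5, whose mean absolute deviation from the diet median was 0.66 in high-fat and 0.48 in control mice on the log2 scale (difference 0.18 ± 0.07 SE, adjusted p = 0.138). None of 11 genes passed in liver, where 0.0323% of genes did, or in muscle, where 0.0222% did, and none was under 0.05 unadjusted there.

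Relations between tissues of the same mouse were tested for these genes only. No share of all genes can thus be set beside the counts that follow. Of 26 relations tested in 1 diet at a time, 1 passed by r after adjustment and 3 by rho, all between liver and muscle. That of Mcm6 in 74 high-fat mice passed by both (r = 0.361, rho = 0.451, permutation test, adjusted p = 0.0421 for r and 0.00156 for rho). Without the 2 farthest mice r was 0.302, and with libraries of low scale factor left out r became 0.272 and no longer passed (adjusted p = 0.34). In 74 control mice Mcm6 passed by rho only (r = 0.142, rho = 0.332, permutation test, adjusted p = 0.651 for r and 0.0343 for rho). Ccnd1 in high-fat mice also passed by rho only (r = 0.321, rho = 0.334, permutation test, adjusted p = 0.0828 for r and 0.0343 for rho), with r at 0.346 without the 2 farthest mice. Adipose libraries matched the liver of the same number best in 83.1% of mice and the muscle in 77.7%, against 96% for liver and muscle. Each share is over 150 genes picked by their correlation between those same libraries, which favours such matches. Mcm2 in adipose tissue and liver of high-fat mice had an r of 0.263 (adjusted p = 0.16). Rrm2, which moved in opposite directions by diet in these tissues, had an r of −0.14 across high-fat and 0.03 across control mice.

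The levels of 9 of the 32 genes are uncertain where reads could fall on a neighbour, since Ccna2, Ccnd1, Ccne2, Cdc20, Foxm1, Mcm7, Nusap1, Plk1 and Top2a share exon bases with another gene in GENCODE M21. The libraries are stranded, and whether strand was used in counting is not given in the sources used here. Cdc20 overlaps Elovl1, a fatty acid elongase, and Ccnd1 and Ccne2 overlap LTO1 and Ints8, in each case on the opposite strand, while Foxm1 shares exon bases with Tex52 on its own strand.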

How the data were processed

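The deposited tables hold TPM, although they are named as counts: columns of liver and muscle sum to 1e+06 and values are not whole. Per the labels' protocols, stranded total RNA libraries were run on MiSeq. Bowtie 1.2.2, Trim Galore 0.4.4 and FastQC appear in the submitters' processing notes, with the quantifier, annotation and build not given in the sources used. The adipose table has 2728 complete genes, and 1 incomplete line was left out. Gene IDs were matched to GENCODE M21 (99.9% in adipose tissue, 99.1% in liver and muscle), and promoters to RefSeq.

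Each library was divided by a scale factor, its trimmed mean log ratio to the gene medians of its tissue, over protein-coding genes (Lars2 and mitochondrial genes left out) with a median of at least 1 TPM (0.3 of ratios and 0.05 of levels trimmed). Genes were kept where the libraries with a scaled TPM of at least 1, both diets counted together, numbered at least 0.7 of the smaller diet group's size. A gene could thus be kept without reaching that share in either diet. The genes kept were tested on log2(scaled TPM + 1) with limma 3.58.1 in R 4.3.3 (trend, robust, Benjamini-Hochberg, threshold 0.05, two-sided). Interactions were fitted per tissue pair on the scaled values without a mouse block. Same numbers are the same mouse per the labels, and liver matched its own muscle best in 143 of 149 mice. That count rests on 150 genes picked by their correlation between the same libraries, which favours such matches. Over all 10991 genes compared, the median r was 0.107 for the same number and −0.002 for different numbers. Spread was tested on absolute deviations from the diet median.

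Members and lists were chosen with earlier results of these data known. Named were all members, up to 4 tested genes of each pathway list per tissue with the smallest p, the 8 genes most like the members' mean, and Cd68 and Adgre1. Genes named beyond these (Fcgr1, Cd163, Clec4f, Il7r, Cd3d and Nkg7) were chosen after their values were seen. Alternatives were other scalings, no filter, a pseudocount of 0.1, libraries left out, array weights and marker sums as covariates. Depth is unknown.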

Additional observations from a re-analysis of the deposited data

Results flagged for a closer look

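Differences of the diet effect between tissues passed a test of the difference itself for Rrm2 and Mcm2, limma's interaction term with Benjamini-Hochberg adjustment over all genes tested in both tissues. Rrm2, the small subunit of ribonucleotide reductase, had a diet effect of 0.48 in adipose tissue and −0.33 in liver, a difference of 0.82 on the log2 scale (0.8151, SE 0.13, adjusted p = 1.10e-07). Mcm2, a subunit of the replicative helicase, had effects of 0.34 in adipose tissue and 0.06 in liver, a difference of 0.28 (0.2805, SE 0.11, adjusted p = 0.0471), and of 0.34 in adipose tissue and −0.07 in muscle, a difference of 0.41 (0.4072, SE 0.11, adjusted p = 0.00246). The Mcm2 difference between adipose tissue and liver did not pass in TPM as deposited, with a pseudocount of 0.1 or without the libraries of low scale factor. Rrm2 was low in liver, at medians of 0.771 scaled TPM in high-fat and 1.34 in control mice. Its fall there did not pass in TPM as deposited, and it was not tested after scaling by the median of ratios. The macrophage markers also moved by diet in adipose tissue, and their part in the differences between tissues was not tested.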

How the results depend on the processing

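The share of genes called is given in percent where the number of genes called moved by more than 1.5 times. In TPM as deposited it was 0.111% in muscle, 0.479% in liver and 14.4% in adipose tissue (1.61%, 9.94% and 45.6% with scaling), and 6.21% and 0.064% for the adipose-liver and liver-muscle differences (26.5% and 3.26%). With covariates in adipose tissue it was 1.62% (macrophage markers) and 12.4% (lymphocyte markers). With libraries of low scale factor left out it was 15.7% in liver, 5.73% for the liver-muscle difference, and 1.43% and 0.0723% for the spread in adipose tissue and liver (2.34% and 0.0323%). Array weights gave 17.8% in liver and 3.06% in muscle. In muscle no filter gave 0.301%, mouse 80 kept 1.04%, and 2.6% came without the 6 libraries rich in lymphocyte markers. The spread in liver gave 0.00808% with a pseudocount of 0.1. Of relations between tissues, 0 rather than 1 passed with libraries of low scale factor left out. Directions reversed, none past the threshold, with the macrophage sum for Foxm1 (−0.137), Ccne1 (−0.031) and Cdc20 (−0.0406), and with the lymphocyte sum for Foxm1 (−0.0549). The causes were not tested. With the replicate block of mouse numbers the differences gave 27.6%, 26.8% and 3.84% (26.5%, 24.1% and 3.26% without), at within-mouse correlations of 0.0389, 0.0746 and 0.0494, and no call on the 32 genes changed. For single genes, 455 alternative values stayed on their side of the threshold, 30 lost their call (the 4 reversed ones among them) and 9 gained one. The covariates other than macrophages and the leaving out of lymphocyte-rich and mismatched libraries were added after seeing the data. Depth is unknown, so no limit of detection can be given for genes at 0.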

Other observations

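The genes whose levels across all mice in use were most like the mean of the tested cell cycle genes are given for each tissue. In adipose tissue they were Hmmr (r = 0.87), Timp1 (0.81), Uhrf1 (0.81), Kif20a (0.81), Tubb5 (0.79), Arpc5 (0.79), Cyba (0.79) and Cyth4 (0.78), all of them higher in high-fat mice. Timp1, an inhibitor of matrix proteases, had a median of 15.3 scaled TPM in high-fat and 4.55 in control mice, and Cyba, a subunit of the phagocyte oxidase, 128.8 and 63.1. In liver the closest genes were Anxa2 (0.57), Pdcd10 (0.52), Ifih1 (0.50), Faf2 (0.50), Txndc12 (0.49), Zcchc17 (0.49), Ctr9 (0.49) and Ube2e2 (0.49). By limma Ifih1 was lower in high-fat mice (log2 fold change −0.23, adjusted p = 0.0328), and the others did not pass (adjusted p of 0.486 or more). In muscle the closest genes were Dgka (0.70), Def6 (0.70), Ezr (0.69), Cxcl16 (0.68), Ldb1 (0.67), Elmo1 (0.67), Akna (0.65) and Arhgap45 (0.65), and none of these differed by diet (adjusted p of 0.423 or more). The 6 muscle libraries rich in lymphocyte markers were among those used, and their part in these r values was not tested. The likeness is Pearson's r with diet means removed, over 11 tested genes per tissue, and is a description without a test.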
